A study of Mus musculus with 11 samples.

Results

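The semaphorin, plexin, ephrin, Eph, Slit, Robo, netrin and Unc5 genes are the large families of guidance molecules, and 69 of the 37820 gene IDs in the deposited table belong to them by symbol. They were taken by their names, although the families were picked with earlier results of these data known, and they comprise 20 semaphorins, 9 plexins, 9 EphA and 5 EphB receptors, 6 ephrin-A and 3 ephrin-B IDs, 4 Robo receptors, 3 Slit ligands, 4 netrins and 4 Unc5 receptors. The pattern also takes in Unc50, a Golgi-associated protein, and Unc5cl, which share letters with the netrin receptors and are not among them. Efna5 occurs under 2 IDs, so the 69 IDs carry 68 symbols. RNA-seq of poly(A) RNA was available for 11 libraries of 5 sorted mouse populations that span the emergence of hematopoietic stem cells (HSCs), with 3 libraries of pre-HSCs and 2 of each other population. Levels are given in FPKM, the number of fragments per kilobase of transcript scaled to the size of the library, so that genes of different length can be set side by side.

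Endothelial cells (Endo) and hemogenic endothelium (HE), the endothelium that gives rise to blood, were both CD31+ CD45- CD41- cells at E10.5. The study describes them as cells of the major arteries. They were sorted from the caudal region with the vitelline and umbilical arteries included, by a gate without an arterial marker. Endo were Kit- and lacked GFP, while HE carried GFP inserted at the Runx1 locus and were Kit low or negative, and both came from Runx1 tm4Dow sires on B6C3F1 dams. Pre-HSCs were CD31+ CD144+ ESAM+ Kit+ cells with GFP driven by Ly6a regulatory sequences, from embryos of B6C3F1/J dams and Ly6a-GFP transgenic sires. Their age is E10.5 in the sample labels and a day later in the study's methods. HSCs of E14.5 fetal liver (FL HSCs) and of adult bone marrow at 6 to 8 weeks (BM HSCs) were Lin- Sca-1+ Kit+ CD150+ CD48- and carried no reporter, with CD135 or CD34 also excluded for BM HSCs depending on the source. The methods state that the dams of the pre-HSC embryos were injected with gonadotropins to induce superovulation. No treatment is given for the other populations. The labels give B6129SF1 as the strain throughout, while the methods name different crosses. By the methods, FL HSCs came from fetuses of B6C3F1/J dams and B6129SF1/J sires, and BM HSCs from B6C3F1/J and B6129SF1/J mice of both sexes. Strain, reporter, gate and the treatment of the dams thus change with the population and cannot be told apart from it. Each library was made from cells pooled over many embryos or mice, and p values measure the spread between such libraries.

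Guidance molecules steer axons and vessels by repulsion and attraction at the cell surface. Semaphorins signal through plexins, the secreted class 3 members mostly together with neuropilins. Ephrins are bound to the membrane and meet Eph receptors on a neighboring cell, and the pair of ephrin-B2 on arterial and EphB4 on venous endothelium is the classic mark of the arterial and venous divide. Slits are ligands of the Robo receptors, and netrins bind the Unc5 receptors. In blood, several semaphorins and plexins are known from leukocytes, where they bear on adhesion and immune signaling.

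Of the 69 IDs, 60 reached 1 FPKM in at least 2 libraries and entered the tests, together with 14708 genes in all. A mean of at least 1 FPKM was reached by 47 of the 69 IDs in Endo, 55 in HE and 56 in pre-HSCs, but by 27 in each HSC population, while over the whole table that share stayed between 32.2% and 34.5% of IDs. Of the 60 tested genes, 32 (53.3%) had their highest mean in HE, 15 (25%) in pre-HSCs, 4 (6.67%) in Endo, 7 (11.7%) in BM HSCs and 2 (3.33%) in FL HSCs. Among all 14708 genes, 15% were highest in HE and 32.9% in BM HSCs. In bulk libraries of this kind, fewer cells that express a gene and less of its RNA in each cell cannot be told apart. The FPKM of short counts in single-exon genes fell on steps of whole fragments for 98.2% of 1176 low values (within 0.1 of a fragment), and 1 FPKM in a transcript of 3000 bases then stands for 95.2 to 179 fragments, depending on the library. A gene listed at 0 may also be a failed estimate, and no fold change is given against such a group.

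**Figure D1:**
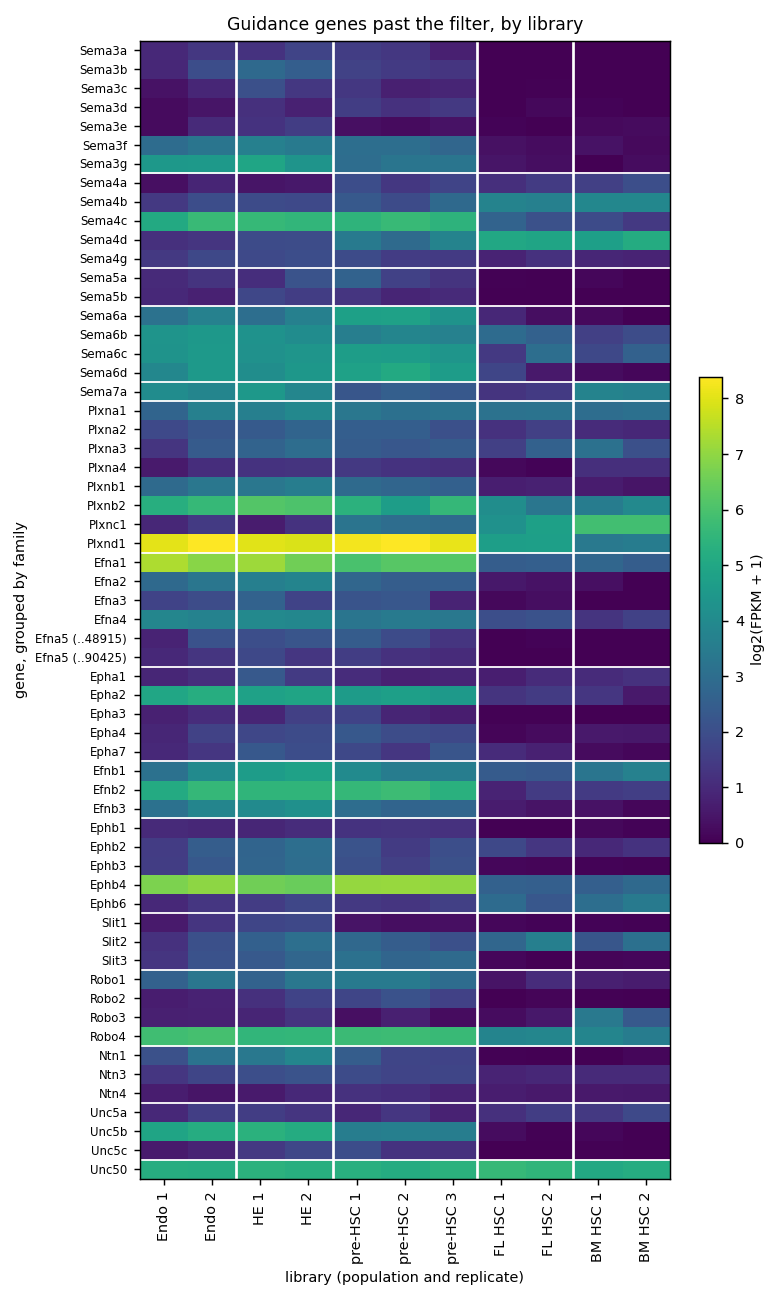
Levels of the 60 guidance genes that passed the filter, as log2(FPKM + 1), with genes down the page by family and the 11 libraries across in order of development. Most genes are brighter in Endo, HE and pre-HSCs than in FL HSCs and BM HSCs, while Plxnc1, Sema4b, Sema4d and Ephb6 brighten to the right.

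Genes were called with limma on log2(FPKM + 1) over all libraries: the adjusted p had to be under 0.01 in the F test and under 0.05 in the comparison, with at least a 2-fold change. A call counted as lost when any of these limits failed, which could be the F test alone. The adjusted p printed with a lost call is that of the comparison. In all, 47 of the 60 genes were called in at least 1 of 5 comparisons. The matching share over all genes was not counted, so this number has no background to be set against. Between HE and Endo, limma called 0 of 60 higher and 0 lower, against 0.0544% and 0.0748% of all genes. In pre-HSCs over HE, 4 genes rose and 10 fell, against 6.98% of all genes called higher and 4.34% called lower. In FL HSCs over pre-HSCs, 4 rose and 37 fell, against 11.1% and 13.9% of all genes. BM HSCs over FL HSCs gave 5 rises and 1 fall, against 5.99% and 4.07% of all genes. BM HSCs over Endo, a comparison that shares its libraries with the others, gave 6 rises and 29 falls, against 21.1% and 15.1% of all genes. The median log2 fold change of the 60 genes was 0.41 for HE over Endo, -0.31 for pre-HSCs over HE, -1.27 for FL HSCs over pre-HSCs, -0.02 for BM HSCs over FL HSCs and -0.99 for BM HSCs over Endo. The medians over all genes in the same order of comparisons were 0.03, 0.09, 0.11, 0 and 0.19. The counts of the smaller sets rested on single libraries: without HE replicate 1, 2 genes rose in pre-HSCs over HE, and in BM HSCs over FL HSCs 2 rose without FL HSC replicate 1, 3 rose and 4 fell without FL HSC replicate 2, and 3 rose and 2 fell without BM HSC replicate 2. For every call, the libraries of the compared populations did not overlap. With 2 or 3 libraries a population this largely follows from the limits of a call, and it adds no support.

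**Figure D2:**
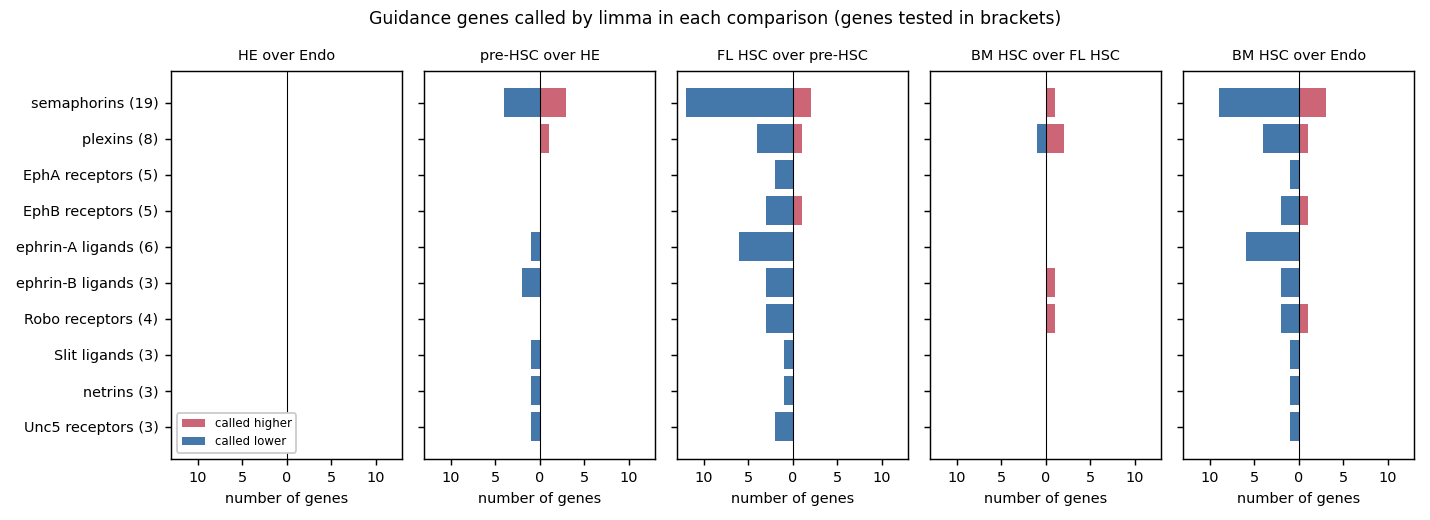
Number of guidance genes that limma called higher (right of the line) or lower (left of the line) in each comparison, by family, with the number tested in brackets. The step between pre-HSCs and FL HSCs takes in all 6 ephrin-A and all 3 ephrin-B IDs and 12 of 19 semaphorins, and HE over Endo shows no bars.

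Plexins, the semaphorin receptors, exchanged their leading member. Plxnd1, the plexin of endothelium and receptor for Sema3e, had 264 and 335 FPKM in Endo, 256 and 242 in HE, then 302, 333 and 278 in pre-HSCs, followed by 25.1 and 25.7 in FL HSCs, with 9.41 and 10.6 in BM HSCs. It was high in all 7 libraries of the embryo's vessels and low in all 4 of FL and BM HSCs, with no overlap. The log2 fold change was -3.53 (SE 0.13, adjusted p = 6.4e-08) for FL HSCs over pre-HSCs and -1.26 (SE 0.15, adjusted p = 0.00053) for BM HSCs over FL HSCs. Plxnc1, the receptor for Sema7a, took the opposite course at 0.912 and 1.7 FPKM in Endo, 0.575 and 1.35 in HE, then 8.36, 7.08 and 6.48 in pre-HSCs, followed by 18.1 and 26.2 in FL HSCs, with 56.4 and 56.3 in BM HSCs. Endo and HE overlapped, and each later population lay above the one before it. Its log2 fold change was 2.11 (SE 0.24, adjusted p = 0.00046) for pre-HSCs over HE, 1.46 (SE 0.24, adjusted p = 0.00081) for FL HSCs over pre-HSCs and 1.33 (SE 0.27, adjusted p = 0.0071) for BM HSCs over FL HSCs. Without FL HSC replicate 1 that last value was 1.07 (adjusted p = 0.06) and not called. Over Endo, Plxnc1 was higher in BM HSCs by a log2 fold change of 4.66 (SE 0.27, adjusted p = 4.6e-07), the highest of the 60 genes.

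As a share of all plexin FPKM, Plxnd1 held 69.5% to 85.8% in the 7 libraries of Endo, HE and pre-HSCs, 35.1% and 33.5% in FL HSCs, but 10.03% and 11.2% in BM HSCs. Plxnc1 held 0.161% to 0.409% in Endo and HE, 1.83% to 2.21% in pre-HSCs, 25.3% and 34.1% in FL HSCs, reaching 60.1% and 59.4% in BM HSCs. The summed plexin FPKM was 71.5 to 94.7 in FL and BM HSCs, against 319 to 415 in the first 3 populations. Most plexin FPKM was thus Plxnc1 in BM HSCs and Plxnd1 in Endo.

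**Figure D3:**
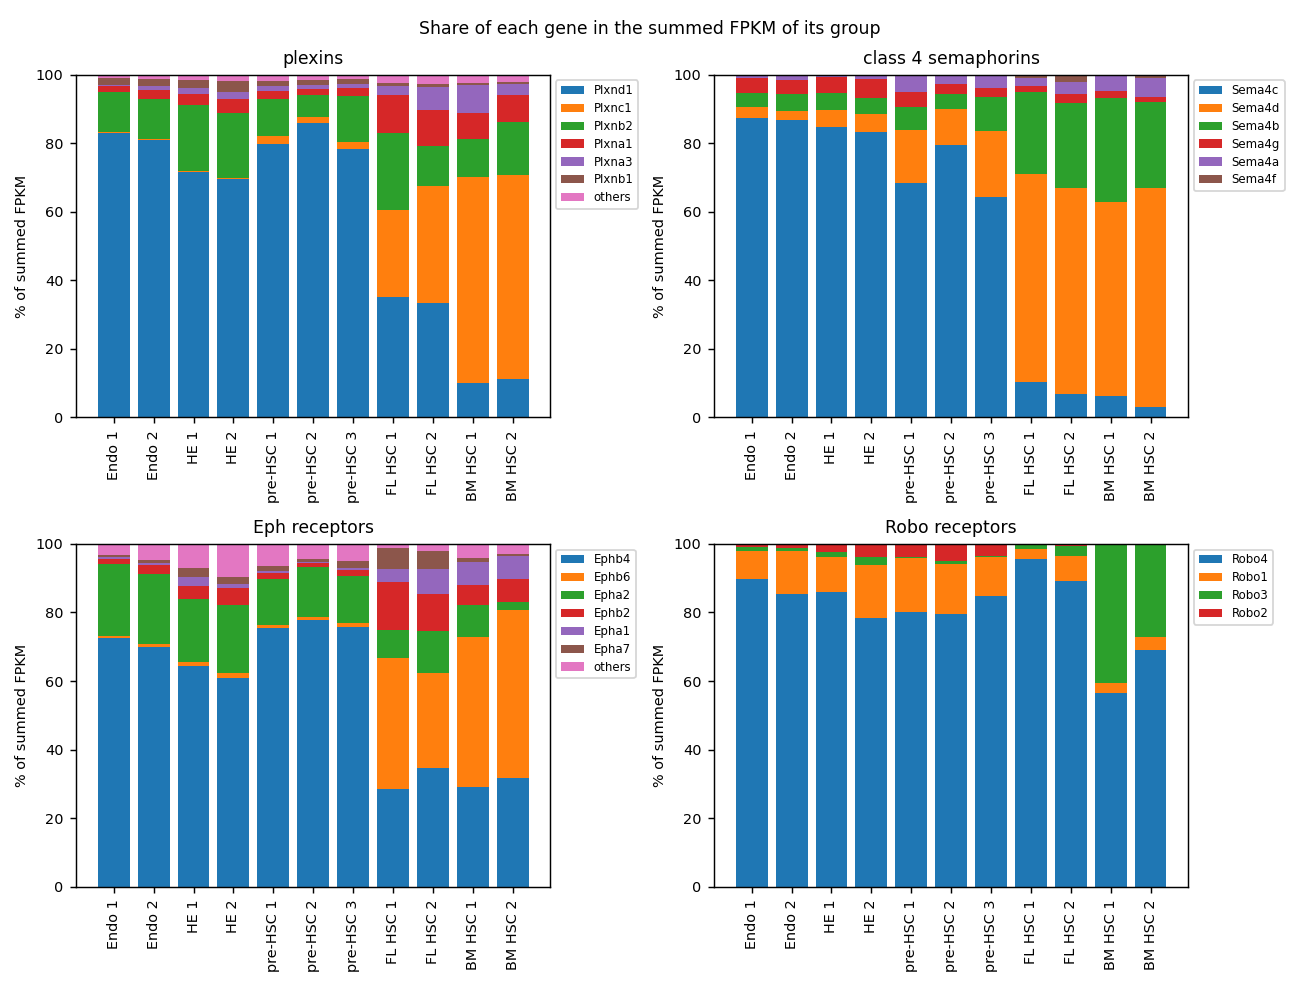
Share of each gene in the summed FPKM of the plexins, class 4 semaphorins, Eph receptors and Robo receptors, in percent, for each library in order of development. Plxnd1, Sema4c and Ephb4 lead through pre-HSCs, Plxnc1 takes 60.1% and 59.4% of plexin FPKM in BM HSCs, and Robo3 appears with 40.5% and 27.0% of Robo FPKM in BM HSCs.

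The other plexins lay lower. Plxnb2, a broadly expressed receptor for class 4 semaphorins, had 37.3 and 47.8 FPKM in Endo, 69.5 and 65.7 in HE, then 41.1, 24.7 and 47.6 in pre-HSCs, followed by 16.1 and 8.83 in FL HSCs, with 10.5 and 14.6 in BM HSCs. Its levels were highest in HE, and it fell in FL HSCs over pre-HSCs (log2 fold change -1.53, SE 0.30, adjusted p = 0.0023). Plxnb1, the receptor for Sema4d in many tissues, had 6.44 and 9.15 FPKM in Endo, 8.98 and 10.7 in HE, then 6.41, 5.61 and 4.91 in pre-HSCs, followed by 0.615 and 0.688 in FL HSCs, with 0.575 and 0.395 in BM HSCs. Plxnb1 fell by a log2 fold change of -2.00 (SE 0.20, adjusted p = 3.2e-05) in FL HSCs over pre-HSCs, and was under 1 FPKM in each library of FL and BM HSCs, where its ligand Sema4d was at its highest. Plxna2 had 2.65 and 3.69 FPKM in Endo, 4.22 and 5.49 in HE, then 4.73, 4.75 and 3.1 in pre-HSCs, followed by 1.28 and 2.01 in FL HSCs, with 1.06 and 0.926 in BM HSCs. Plxna2 was called for BM HSCs over Endo alone (log2 fold change -1.05, SE 0.26, adjusted p = 0.0059), a call lost without Endo replicate 2 (log2 fold change then -0.87, adjusted p = 0.044). Plxna4 had 0.509 and 1.14 FPKM in Endo, 1.32 and 1.38 in HE, then 1.64, 1.34 and 1.21 in pre-HSCs, followed by 0.136 and 0.0651 in FL HSCs, with 1.19 and 1.21 in BM HSCs. Plxna4 fell in FL HSCs over pre-HSCs (log2 fold change -1.12, SE 0.20, adjusted p = 0.0013) and rose in BM HSCs over FL HSCs at the fold limit (log2 fold change 1.0, SE 0.22, adjusted p = 0.011). Its fall was lost in 7 and its rise in 9 of 20 alternatives, both without pre-HSC replicate 1 and without either FL or either BM library (fall: log2 fold change then -1.17 to -1.05, adjusted p 0.0027 to 0.011, rise: log2 fold change then 0.95 to 1.05, adjusted p 0.018 to 0.058). Plxna1 and Plxna3, at 5.52 to 14.2 and 1.47 to 7.68 FPKM, were called in no comparison.

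The stretches before the transcription starts are shown for genes that lead their families and moved in opposite ways. RefSeq windows on GRCm38.p6, a later build than the one the data were aligned to, were found for 59 of the 68 symbols, 75 windows in all, each 300 bases long. The letters GGGCGG, the GC box that SP factors bind, were looked for on both strands and were present in 53 of 75 windows (70.7%), against 35.7% of 32851 windows of all genes. The ETS letters CGGAAG were present in 9.33% of these windows against 16.9% of all, and the GATA letters AGATAA in 4% against 11.2%. Windows of 1 gene can overlap, no test was made, and a match is a run of letters and not a site. The 250 bases before the start are shown for Plxnd1 (chr6:115995006-115995255, minus strand), Plxnc1 (chr10:94944846-94945095, minus strand), Ephb4 (chr5:137349859-137350108, plus strand) and Robo4 (chr9:37401722-37401971, plus strand), with GGGCGG or its reverse complement in capitals.
Plxnd1: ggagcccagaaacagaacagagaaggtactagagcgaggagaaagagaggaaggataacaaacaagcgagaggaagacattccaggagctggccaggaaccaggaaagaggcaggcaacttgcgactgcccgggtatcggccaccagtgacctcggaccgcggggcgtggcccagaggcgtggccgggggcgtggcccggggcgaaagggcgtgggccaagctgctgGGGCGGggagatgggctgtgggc
Plxnc1: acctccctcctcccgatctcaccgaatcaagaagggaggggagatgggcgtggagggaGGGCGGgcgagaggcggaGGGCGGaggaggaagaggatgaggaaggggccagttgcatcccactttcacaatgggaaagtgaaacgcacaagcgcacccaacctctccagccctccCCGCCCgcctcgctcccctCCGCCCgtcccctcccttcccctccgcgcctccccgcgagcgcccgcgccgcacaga
Ephb4: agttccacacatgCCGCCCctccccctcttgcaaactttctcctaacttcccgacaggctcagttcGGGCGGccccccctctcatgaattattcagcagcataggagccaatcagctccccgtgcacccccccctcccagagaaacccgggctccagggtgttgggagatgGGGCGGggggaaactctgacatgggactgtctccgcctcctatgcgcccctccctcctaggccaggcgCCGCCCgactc
Robo4: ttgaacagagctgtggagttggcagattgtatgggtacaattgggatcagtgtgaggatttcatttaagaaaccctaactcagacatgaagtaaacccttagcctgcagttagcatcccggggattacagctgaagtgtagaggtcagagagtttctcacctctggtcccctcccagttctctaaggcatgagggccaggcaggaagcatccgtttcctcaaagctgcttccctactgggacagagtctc
The GC box occurs 4 times before Plxnc1, 4 times before Ephb4, 1 time before Plxnd1 and 0 times before Robo4, and none of the 4 stretches holds the ETS or GATA letters, so no match overlaps another motif. Plxnc1, which rose along the course, and Ephb4, which fell, hold the same number of GC boxes in this stretch.

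**Figure D4:**
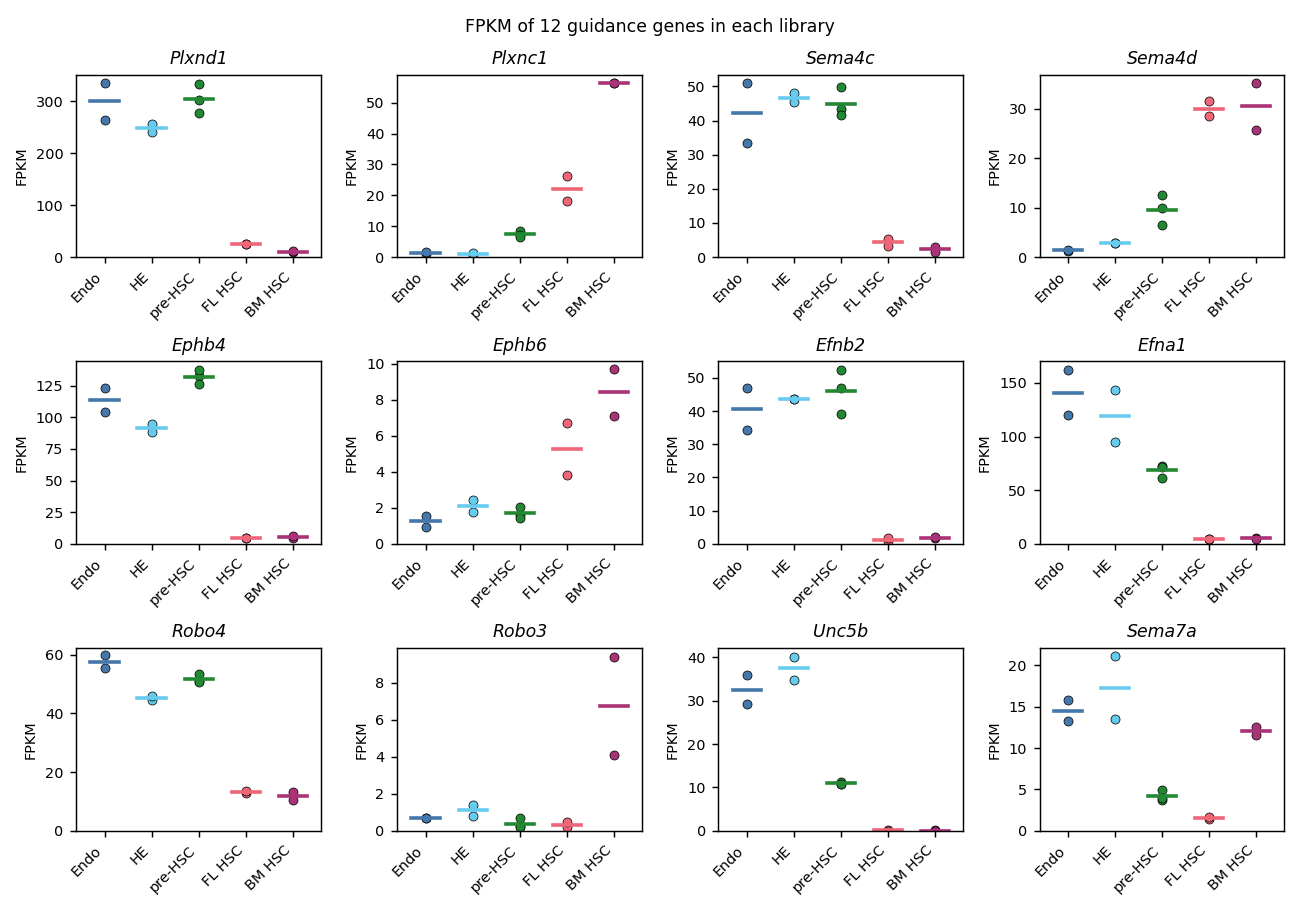
FPKM of 12 guidance genes in each library (points) and the mean of each population (bars), in order of development, each panel on its own linear axis from 0. Plxnd1 and Sema4c drop at FL HSCs while Plxnc1 and Sema4d climb, Robo3 is high in the BM HSC libraries alone, and Sema7a dips through pre-HSCs and FL HSCs and returns in BM HSCs.

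Class 4 semaphorins, membrane-bound ligands, had summed levels of similar size in all populations, while their members changed places. Their sum was 38.3 and 58.8 FPKM in Endo, 56.8 and 54.6 in HE and 62.6 to 64.6 in pre-HSCs, compared with 51.8 and 47.5 in FL HSCs, and 45.6 and 55.1 FPKM in BM HSCs. Sema4d (also CD100), known from T and B cells and a ligand of Plxnb1 and of CD72, had 1.24 and 1.46 FPKM in Endo, 2.8 and 2.89 in HE, then 9.82, 6.51 and 12.5 in pre-HSCs, followed by 31.5 and 28.6 in FL HSCs, with 25.8 and 35.2 in BM HSCs. Sema4d rose in pre-HSCs over HE (log2 fold change 1.42, SE 0.24, adjusted p = 0.003) and again in FL HSCs over pre-HSCs (log2 fold change 1.59, SE 0.24, adjusted p = 0.00046), and FL and BM HSCs overlapped. Sema4c, a ligand of Plxnb2, moved the other way with 33.4 and 51 FPKM in Endo, 48.1 and 45.4 in HE, then 43.3, 49.8 and 41.5 in pre-HSCs, followed by 5.35 and 3.28 in FL HSCs, with 2.82 and 1.61 in BM HSCs. Sema4c fell in FL HSCs over pre-HSCs by a log2 fold change of -3.13 (SE 0.24, adjusted p = 5e-06). Sema4d held 2.48% to 5.29% of the class 4 FPKM in Endo and HE, 10.39% to 19.4% in pre-HSCs and 56.6% to 64.0% in FL and BM HSCs, and Sema4c held 2.93% to 10.3% in HSCs, against 64.3% to 87.3% in the first 3 populations.

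Sema4b, whose role in blood is less well described, had 1.62 and 2.95 FPKM in Endo, 2.81 and 2.6 in HE, then 4.13, 2.76 and 6.38 in pre-HSCs, followed by 12.4 and 11.7 in FL HSCs, with 13.9 and 13.9 in BM HSCs. Sema4b rose in FL HSCs over pre-HSCs by a log2 fold change of 1.32 (SE 0.28, adjusted p = 0.0032). Sema4a, a semaphorin of dendritic cells and T cell priming, had 0.281 and 0.81 FPKM in Endo, 0.378 and 0.443 in HE, then 2.91, 1.58 and 2.3 in pre-HSCs, followed by 1.19 and 1.74 in FL HSCs, with 2.03 and 3.04 in BM HSCs. Pre-HSCs lay above HE (log2 fold change 1.19, SE 0.25, adjusted p = 0.0089) and BM HSCs above Endo (log2 fold change 1.20, SE 0.28, adjusted p = 0.0044), but both calls were lost without HE replicate 1, HE replicate 2 or BM HSC replicate 2 (for pre-HSCs over HE, log2 fold change then 1.16 to 1.22, adjusted p 0.012 to 0.073), and that over Endo also without Endo replicate 1 (log2 fold change then 0.95 to 1.20, adjusted p 0.0073 to 0.041). Sema4g at 0.773 to 2.999 FPKM was called in no comparison. Macrophage markers differed between the pre-HSC libraries, with a sum over 9 genes of 626, 234 and 1272 FPKM in replicates 1, 2 and 3. Sema4d, Sema4b and Plxnb2 were likewise lowest in replicate 2 and highest in replicate 3. Other genes had other orders: Sema4a was lowest in replicate 2 but highest in replicate 1. Sema4c was highest in replicate 2 and lowest in replicate 3. Plxnc1 and Sema4g were highest in replicate 1 and lowest in replicate 3. The share of all genes in each order was not counted. In HE the macrophage sum was 7.87 and 11.9 FPKM, and in pre-HSCs over HE all 9 macrophage and all 10 blood markers rose. The same sum was 385 and 111 FPKM in FL HSCs and 108 and 131 FPKM in BM HSCs. In FL HSC replicates 1 and 2, Lyz2 was at 121 and 70.5, C1qb at 101 and 10.9 and Csf1r at 33.2 and 4.79 FPKM. In BM HSCs most of it was Lyz2, a gene of neutrophils and monocytes too, at 101 and 127 FPKM, while C1qb was at 1.74 and 1.34 FPKM and Csf1r at 0.136 and 0.0674 FPKM. The part of macrophages in the values of these genes was not tested.

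Class 3 semaphorins, the secreted ligands, were at low levels in all HSC libraries. Their sum was 0.565 to 0.748 FPKM in the 4 libraries of FL and BM HSCs, against 19.4 to 55.0 FPKM in the 7 of Endo, HE and pre-HSCs. Sema3g, an arterial ligand of neuropilin-2, led them with 21.4 and 22 FPKM in Endo, 29.9 and 19.2 in HE, then 6.93, 8.63 and 8.62 in pre-HSCs, followed by 0.399 and 0.231 in FL HSCs, with 0.0112 and 0.222 in BM HSCs. Sema3g fell in pre-HSCs over HE (log2 fold change -1.47, SE 0.22, adjusted p = 0.0016) and in FL HSCs over pre-HSCs (log2 fold change -2.78, SE 0.22, adjusted p = 5.3e-06). Sema3f, an inhibitor of vessel growth through neuropilin-2, had 6.73 and 8.52 FPKM in Endo, 11.7 and 9.83 in HE, then 7.14, 7.17 and 5.89 in pre-HSCs, followed by 0.286 and 0.222 in FL HSCs, with 0.337 and 0.163 in BM HSCs. Sema3f fell in FL HSCs over pre-HSCs (log2 fold change -2.62, SE 0.19, adjusted p = 3.3e-06). Both were below 1 FPKM in every HSC library.

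The other class 3 genes had lower levels. Sema3b had 0.926 and 2.96 FPKM in Endo, 6.36 and 4.63 in HE, then 2.17, 1.68 and 1.45 in pre-HSCs, and was listed at 0 in all 4 libraries of FL and BM HSCs. Its highest values were in HE. It fell in pre-HSCs over HE (log2 fold change -1.23, SE 0.29, adjusted p = 0.014), a call lost without HE replicate 1 (log2 fold change then -1.03, adjusted p = 0.13), and being listed at 0 in all FL and BM libraries it was also called lower in FL HSCs (limma's adjusted p = 0.0024). Sema3a, the classic axon repellent, had 0.954 and 1.59 FPKM in Endo, 1.32 and 2.27 in HE, then 1.9, 1.59 and 0.653 in pre-HSCs, and was listed at 0 in all 4 libraries of FL and BM HSCs. Sema3a was called lower in FL HSCs over pre-HSCs (adjusted p = 0.0049). Sema3d had 0.18 and 0.405 FPKM in Endo, 1.22 and 0.71 in HE, then 1.86, 1.28 and 1.6 in pre-HSCs, followed by 0.014 and 0.136 in FL HSCs, with 0.0618 and 0 in BM HSCs. Sema3d fell in FL HSCs over pre-HSCs (log2 fold change -1.26, SE 0.20, adjusted p = 0.00068). Sema3e, the ligand that signals through Plxnd1 without a neuropilin, had 0.186 and 0.984 FPKM in Endo, 1.34 and 1.91 in HE, then 0.259, 0.187 and 0.328 in pre-HSCs, followed by 0.0487 and 0 in FL HSCs, with 0.155 and 0.192 in BM HSCs. Sema3e fell in pre-HSCs over HE (log2 fold change -1.05, SE 0.24, adjusted p = 0.011), a call close to the fold limit that was lost in 10 of 18 alternatives, among them each with a pre-HSC, FL or BM library left out (log2 fold change then -1.09 to -1.01, adjusted p 0.015 to 0.031). So while Plxnd1 stayed between 242 and 335 FPKM through pre-HSCs, its ligand Sema3e reached 1.91 FPKM at most. Sema3c, at 0 to 3.12 FPKM, was called in no comparison.

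Class 5 and 6 semaphorins are membrane proteins, and class 6 members bind A-type plexins. Sema6a had 7.95 and 12 FPKM in Endo, 7.27 and 11.5 in HE, then 26, 26.9 and 19 in pre-HSCs, followed by 0.922 and 0.243 in FL HSCs, with 0.16 and 0 in BM HSCs. Sema6a was the 1 gene of the 60 that rose in pre-HSCs over HE (log2 fold change 1.28, SE 0.28, adjusted p = 0.01) and then fell in FL HSCs over pre-HSCs (log2 fold change -4.00, SE 0.28, adjusted p = 3e-06), although the rise was lost without HE replicate 1 (log2 fold change then 0.98, adjusted p = 0.12). Sema6d had 13.9 and 21.6 FPKM in Endo, 16.3 and 20.9 in HE, then 27, 33.6 and 24 in pre-HSCs, followed by 2.35 and 0.489 in FL HSCs, with 0.208 and 0.104 in BM HSCs. Sema6d fell in FL HSCs over pre-HSCs (log2 fold change -3.70, SE 0.33, adjusted p = 1.4e-05). Sema6c had 19 and 22.4 FPKM in Endo, 18.1 and 19.99 in HE, then 24.8, 23.7 and 19.8 in pre-HSCs, followed by 1.64 and 7.09 in FL HSCs, with 2.54 and 5.14 in BM HSCs. Its log2 fold change in the same step was -2.36 (SE 0.40, adjusted p = 0.00096), with wide spacing of the HSC libraries. Sema6b had 19.2 and 21.5 FPKM in Endo, 18.3 and 16.1 in HE, then 11, 13.1 and 11.9 in pre-HSCs, followed by 6.63 and 5.03 in FL HSCs, with 2.03 and 2.82 in BM HSCs. It declined without a called step and was lower in BM HSCs over Endo (log2 fold change -2.65, SE 0.19, adjusted p = 2.3e-06). All 4 lay lower in every FL and BM library than in any library of the earlier populations. Sema5a, with 0.986 and 1.39 FPKM in Endo, 1.12 and 3.4 in HE, then 5.18, 2.08 and 1.41 in pre-HSCs, followed by 0.0415 and 0.01 in FL HSCs, with 0.117 and 0 in BM HSCs, fell in FL HSCs over pre-HSCs (log2 fold change -1.80, SE 0.41, adjusted p = 0.0046), but that call was lost in 10 of 20 alternatives, among them without either Endo, FL or BM library and without pre-HSC replicate 2 (log2 fold change then -1.91 to -1.78, adjusted p 0.0074 to 0.027). Sema5b had 0.943 and 0.701 FPKM in Endo, 2.45 and 1.87 in HE, then 1.43, 0.839 and 1.02 in pre-HSCs, and was listed at 0 in all 4 libraries of FL and BM HSCs. Sema5b was called lower in FL HSCs (adjusted p = 0.0015), a call lost without pre-HSC replicate 1 (adjusted p then 0.006, under the 2-fold limit).

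Sema7a, the GPI-anchored semaphorin that binds Plxnc1 and integrins, fell and came back. It had 15.8 and 13.2 FPKM in Endo, 21.1 and 13.5 in HE, then 3.74, 4.87 and 4 in pre-HSCs, followed by 1.41 and 1.69 in FL HSCs, with 12.6 and 11.6 in BM HSCs. Sema7a fell in pre-HSCs over HE (log2 fold change -1.79, SE 0.21, adjusted p = 0.00047) and in FL HSCs over pre-HSCs (log2 fold change -1.02, SE 0.21, adjusted p = 0.0026), the second call being lost without pre-HSC replicate 2 or FL HSC replicate 1 (log2 fold change then -0.94 to -0.93, adjusted p 0.01 to 0.021). In BM HSCs over FL HSCs it rose by a log2 fold change of 2.36 (SE 0.23, adjusted p = 0.00019), to a level just under that of Endo. Sema7a and its receptor Plxnc1 were thus both above 10 FPKM in BM HSCs, and in no other population.

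Among the Eph receptors, tyrosine kinases of cell contact, Ephb4 led in the vessels. Ephb4, the venous receptor for ephrin-B2, had 105 and 124 FPKM in Endo, 95 and 88.2 in HE, then 133, 138 and 126 in pre-HSCs, followed by 5.03 and 4.84 in FL HSCs, with 4.76 and 6.32 in BM HSCs. Ephb4 fell in FL HSCs over pre-HSCs by a log2 fold change of -4.49 (SE 0.13, adjusted p = 1.8e-08). FL and BM HSCs overlapped. Its partner Efnb2 had 34.2 and 47 FPKM in Endo, 43.6 and 43.6 in HE, then 47, 52.4 and 39 in pre-HSCs, followed by 0.778 and 1.74 in FL HSCs, with 1.67 and 1.96 in BM HSCs. Efnb2 fell (log2 fold change -4.41, SE 0.22, adjusted p = 3e-07) in the same step. The venous receptor and the arterial ligand were thus both present in Endo, HE and pre-HSCs and both low in HSCs. Venous markers summed to 431 to 555 FPKM in the Endo and HE libraries and to 685 to 929 in pre-HSCs. Of these, Dab2, Stab1 and Lyve1 were lowest in pre-HSC replicate 2 and highest in replicate 3, the order of the macrophage sum. Aplnr, Nr2f2 and Flt4 were highest in replicate 2. Flt4 was lower in pre-HSCs, at 33.1 to 45.4 FPKM, than in HE, at 47.4 and 47.7. The part of macrophages in the venous sum was not tested. Arterial markers summed to 356 to 541 and to 210 to 252 FPKM in the same libraries. Whether the same cells held both was not tested. Of marker lists drawn up for the purpose, all 10 arterial and all 6 venous genes fell in the same step, as did 11 of 12 endothelial genes, whose sum was 487 and 559.6 FPKM in FL HSCs, against 3043 to 3411 in pre-HSCs.

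Ephb6, a receptor that lacks kinase activity and is known from T cells, ran against Ephb4 with 0.965 and 1.54 FPKM in Endo, 1.78 and 2.41 in HE, then 1.61, 1.45 and 2.04 in pre-HSCs, followed by 6.72 and 3.84 in FL HSCs, with 7.12 and 9.7 in BM HSCs. Ephb6 rose in FL HSCs over pre-HSCs by a log2 fold change of 1.18 (SE 0.26, adjusted p = 0.0037), a call lost without FL HSC replicate 1 (log2 fold change then 0.85, adjusted p = 0.041), and was higher in BM HSCs over Endo (log2 fold change 2.06, SE 0.28, adjusted p = 0.00017). With it the makeup of the Eph messages changed: Ephb4 held 28.6% to 34.7% of Eph FPKM in HSCs, where Ephb6 held 27.5% to 48.8%, against 60.8% to 77.9% for Ephb4 in Endo, HE and pre-HSCs. The summed Eph FPKM was 13.9 to 19.9 in HSCs, against 144 to 177 before the fetal liver. Epha2, a receptor for ephrin-A1 in vessels and epithelia, had 30.6 and 36.4 FPKM in Endo, 27.2 and 28.7 in HE, then 23.2, 26 and 22.5 in pre-HSCs, followed by 1.39 and 1.72 in FL HSCs, with 1.52 and 0.476 in BM HSCs. Epha2 fell in FL HSCs over pre-HSCs (log2 fold change -3.28, SE 0.22, adjusted p = 1.9e-06).

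The remaining Eph receptors were low throughout. Ephb3, a receptor for B-type ephrins, had 1.86 and 3.95 FPKM in Endo, 5.72 and 6.93 in HE, then 3.18, 2.04 and 3.25 in pre-HSCs, followed by 0.111 and 0.0732 in FL HSCs, with 0.0531 and 0.0416 in BM HSCs. Ephb3 fell in FL HSCs over pre-HSCs (log2 fold change -1.79, SE 0.26, adjusted p = 0.00036). Epha4, which binds ephrins of both types, had 0.889 and 2.15 FPKM in Endo, 2.42 and 2.82 in HE, then 3.91, 2.88 and 2.49 in pre-HSCs, followed by 0.0851 and 0.191 in FL HSCs, with 0.478 and 0.443 in BM HSCs. Epha4 fell in the same step (log2 fold change -1.83, SE 0.25, adjusted p = 0.00023). Ephb1 had 1 and 0.919 FPKM in Endo, 0.884 and 1.09 in HE, then 1.33, 1.37 and 1.3 in pre-HSCs, followed by 0 and 0 in FL HSCs, with 0.125 and 0.0603 in BM HSCs. It was listed at 0 in both FL libraries and called lower there (adjusted p = 0.00024). Epha1, Epha3, Epha7 and Ephb2 were called in no comparison, at 0.639 to 4.03, 0 to 2.22, 0.116 to 3.94 and 0.965 to 7.24 FPKM. Epha1 shares 160 exonic bases, 4.89% of its length, with Zyx, a gene that reaches 163 FPKM, and the libraries do not mark strand.

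All ephrins, the ligands of the Eph receptors, fell between pre-HSCs and FL HSCs. Efna1, a ligand induced in endothelium by inflammatory signals, led them with 162 and 119.9 FPKM in Endo, 143 and 95.2 in HE, then 61.7, 72.4 and 71.8 in pre-HSCs, followed by 4.54 and 4.81 in FL HSCs, with 5.9 and 4.59 in BM HSCs. Efna1 fell in that step (log2 fold change -3.61, SE 0.20, adjusted p = 5.4e-07). Efna4, another A-type ligand, had 13.3 and 12.1 FPKM in Endo, 14.6 and 13.9 in HE, then 8.51, 10.1 and 9.17 in pre-HSCs, followed by 3.08 and 3.37 in FL HSCs, with 1.42 and 2.11 in BM HSCs. Efna4 fell (log2 fold change -1.28, SE 0.17, adjusted p = 0.00018). The summed ephrin FPKM was 13.8 to 20.6 in HSCs, against 145 to 263 in Endo, HE and pre-HSCs. Efna2 had 6.27 and 8.77 FPKM in Endo, 11.4 and 12.8 in HE, then 5.86, 4.56 and 4.74 in pre-HSCs, followed by 0.444 and 0.314 in FL HSCs, with 0.256 and 0 in BM HSCs. Efna2 fell both in pre-HSCs over HE (log2 fold change -1.12, SE 0.21, adjusted p = 0.0048) and in FL HSCs over pre-HSCs (log2 fold change -2.13, SE 0.21, adjusted p = 2.6e-05). Efna3 had 2.21 and 2.83 FPKM in Endo, 5.29 and 2.19 in HE, then 3.56, 3.85 and 0.786 in pre-HSCs, followed by 0.135 and 0.25 in FL HSCs, with 0 and 0 in BM HSCs. Its pre-HSC libraries were uneven, and the call in FL HSCs over pre-HSCs (log2 fold change -1.52, SE 0.43, adjusted p = 0.015) was lost in 10 of 20 alternatives, among them without either Endo, FL or BM library (log2 fold change then -1.58 to -1.45, adjusted p 0.021 to 0.073), while in BM HSCs it was listed at 0.

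Efna5 is uncertain, because its 2 IDs share 2416 exonic bases, all of the shorter one (ENSMUSG00000090425) and 59.9% of the longer (ENSMUSG00000048915). The longer ID had 0.781 and 3.32 FPKM in Endo, 3.03 and 3.63 in HE, then 4.48, 2.79 and 1.43 in pre-HSCs, followed by 0 and 0.0508 in FL HSCs, with 0 and 0 in BM HSCs. The shorter had 0.957 and 1.47 FPKM in Endo, 2.51 and 1.51 in HE, then 1.91, 1.3 and 1.04 in pre-HSCs, followed by 0 and 0.00886 in FL HSCs, with 0 and 0 in BM HSCs. Both were called lower in FL HSCs over pre-HSCs (limma's adjusted p = 0.0036 for the longer and 0.0015 for the shorter) and in BM HSCs over Endo, where both libraries of BM HSCs were listed at 0 and the call of either ID was lost without Endo replicate 2. The adjusted p was then up to 0.13 for the longer ID, whose call was also lost without BM HSC replicate 1 or 2, and 0.028 for the shorter.

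Of the B-type ephrins, Efnb1 had the highest level in BM HSCs. Efnb1, a ligand that also signals back into the cell that carries it, had 7.79 and 15.4 FPKM in Endo, 24.1 and 27 in HE, then 15.3, 10.4 and 10.8 in pre-HSCs, followed by 4.26 and 3.96 in FL HSCs, with 8.52 and 11.8 in BM HSCs. Efnb1 fell in pre-HSCs over HE (log2 fold change -1.03, SE 0.27, adjusted p = 0.021) and in FL HSCs over pre-HSCs (log2 fold change -1.35, SE 0.27, adjusted p = 0.0024), and rose in BM HSCs over FL HSCs (log2 fold change 1.11, SE 0.30, adjusted p = 0.025). The first call was lost without either HE library or without pre-HSC replicate 2 or 3, and the last without either FL library or BM HSC replicate 2 (first: log2 fold change then -1.11 to -0.93, adjusted p 0.053 to 0.097, last: log2 fold change then 0.90 to 1.15, adjusted p 0.068 to 0.13). Efnb1 held 3.31% to 12.4% of ephrin FPKM in the first 3 populations, 30.9% and 26.7% in FL HSCs, and as much as 47.1% and 57.4% in BM HSCs. Efnb3 had 7.86 and 13 FPKM in Endo, 15.2 and 17.7 in HE, then 7, 5.48 and 5.79 in pre-HSCs, followed by 0.569 and 0.353 in FL HSCs, with 0.32 and 0.103 in BM HSCs. Efnb3 fell in pre-HSCs over HE (log2 fold change -1.30, SE 0.23, adjusted p = 0.0038) and in FL HSCs over pre-HSCs (log2 fold change -2.28, SE 0.23, adjusted p = 3.3e-05).

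**Figure D5:**
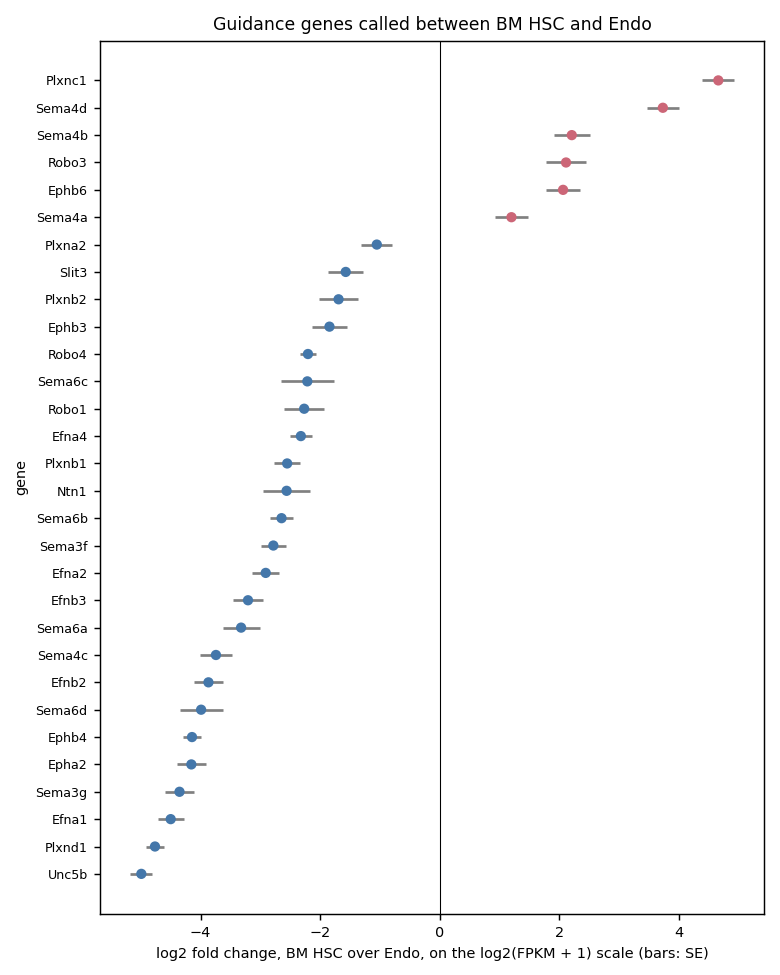
Log2 fold change on the log2(FPKM + 1) scale (points, with SE bars) for BM HSCs over Endo, for the called guidance genes that were not listed at 0 in both BM HSC libraries. Plxnc1 at 4.66 and Sema4d at 3.73 stand at the top, and Unc5b at -4.99 and Plxnd1 at -4.76 at the bottom.

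Robo receptors were led by Robo4, the endothelial Robo, which is also known from HSCs. Robo4 had 55.6 and 59.8 FPKM in Endo, 44.6 and 45.9 in HE, then 51.2, 53.5 and 50.7 in pre-HSCs, followed by 12.9 and 13.5 in FL HSCs, with 13.1 and 10.5 in BM HSCs. Robo4 fell in FL HSCs over pre-HSCs by a log2 fold change of -1.90 (SE 0.12, adjusted p = 1.5e-06), yet with at least 10.5 FPKM in every HSC library it stayed the Robo with the most FPKM. Robo1 had 5.12 and 8.86 FPKM in Endo, 5.22 and 8.99 in HE, then 9.94, 9.75 and 6.85 in pre-HSCs, followed by 0.372 and 1.08 in FL HSCs, with 0.658 and 0.571 in BM HSCs. Robo1 fell in that step (log2 fold change -2.53, SE 0.30, adjusted p = 0.0001). Robo2 had 0.582 and 0.746 FPKM in Endo, 1.24 and 2.21 in HE, then 2.37, 3.3 and 2.09 in pre-HSCs, followed by 0 and 0.0936 in FL HSCs, with 0.0319 and 0 in BM HSCs. Robo2 fell likewise (log2 fold change -1.76, SE 0.22, adjusted p = 0.00015). Robo3, known for letting axons cross the midline, had 0.662 and 0.708 FPKM in Endo, 0.811 and 1.39 in HE, then 0.276, 0.672 and 0.207 in pre-HSCs, followed by 0.222 and 0.448 in FL HSCs, with 9.41 and 4.09 in BM HSCs. Both BM HSC libraries lay above all 9 others, and it rose by a log2 fold change of 2.45 (SE 0.33, adjusted p = 0.0011) in BM HSCs over FL HSCs and 2.11 (SE 0.33, adjusted p = 0.00045) over Endo. The BM libraries themselves were apart, and Robo3 held 40.5% of Robo FPKM in BM HSC replicate 1 and 27.0% in replicate 2.

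Slit ligands split. Slit2 had 1.28 and 3.13 FPKM in Endo, 4.94 and 7.33 in HE, then 6.15, 4.52 and 3.11 in pre-HSCs, followed by 5.9 and 11.3 in FL HSCs, with 3.72 and 7.52 in BM HSCs. Slit2 was called in no comparison. Slit3 had 1.43 and 3.35 FPKM in Endo, 4.12 and 5.85 in HE, then 7.72, 5.64 and 6.55 in pre-HSCs, followed by 0.115 and 0.0212 in FL HSCs, with 0.0869 and 0.103 in BM HSCs. Slit3 fell in FL HSCs over pre-HSCs (log2 fold change -2.83, SE 0.27, adjusted p = 2e-05). Slit1 had 0.524 and 1.48 FPKM in Endo, 2.35 and 2.53 in HE, then 0.364, 0.239 and 0.263 in pre-HSCs, followed by 0.101 and 0.0506 in FL HSCs, with 0.0664 and 0.0428 in BM HSCs. Slit1 fell in pre-HSCs over HE (log2 fold change -1.42, SE 0.22, adjusted p = 0.0021). Slit2 made up 96.0% to 99.4% of Slit FPKM in FL and BM HSCs, against 31.4% to 46.7% in the libraries of Endo, HE and pre-HSCs.

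Of the netrins, Ntn1, a secreted guidance cue of the spinal cord, had 3.23 and 8.27 FPKM in Endo, 9.16 and 13.4 in HE, then 4.6, 2.39 and 2.2 in pre-HSCs, followed by 0.032 and 0.00769 in FL HSCs, with 0.0131 and 0.11 in BM HSCs. Ntn1 fell in pre-HSCs over HE (log2 fold change -1.62, SE 0.36, adjusted p = 0.0099), a call lost without HE replicate 2 (log2 fold change then -1.37, adjusted p = 0.064), and in FL HSCs over pre-HSCs (log2 fold change -1.95, SE 0.36, adjusted p = 0.0014). Ntn3 at 0.775 to 3.46 FPKM and Ntn4 at 0.390 to 1.28 FPKM were called in no comparison. Unc5b, the netrin receptor of arteries and tip cells, had 29.2 and 35.9 FPKM in Endo, 40.1 and 34.8 in HE, then 10.9, 11.2 and 10.9 in pre-HSCs, followed by 0.205 and 0.0455 in FL HSCs, with 0.104 and 0 in BM HSCs. Unc5b fell in pre-HSCs over HE (log2 fold change -1.68, SE 0.17, adjusted p = 0.00021) and in FL HSCs over pre-HSCs (log2 fold change -3.42, SE 0.17, adjusted p = 2.7e-07), and with -4.99 (SE 0.18, adjusted p = 3.1e-08) it had the lowest log2 fold change of the 60 genes in BM HSCs over Endo. Unc5c had 0.515 and 0.801 FPKM in Endo, 1.63 and 2.48 in HE, then 2.99, 1.37 and 1.26 in pre-HSCs, followed by 0 and 0 in FL HSCs, with 0.0398 and 0 in BM HSCs. Unc5c was called lower in FL HSCs, where it was listed at 0 (adjusted p = 0.0014). Unc5a, at 0.742 to 2.59 FPKM, was called in no comparison.

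Between HE and Endo, no guidance gene was called. Of the 60 log2 fold changes, 50 (83.3%) were positive, against 54% of all genes, and against Endo replicate 2 alone 43 of 60 (71.7%) were positive, beside 49.2% of all genes. At an unadjusted p under 0.05 with a 2-fold difference, 4 genes were higher in HE and 0 lower, against 2.28% of all genes in either direction. These were Sema3b, Efnb1, Slit2 and Sema3c, with log2 fold changes of 1.22, 1.14, 1.20 and 1.04 and limma's adjusted p of 0.27, 0.26, 0.44 and 0.31. The Endo libraries were not alike. Endo replicate 1 lay below Endo replicate 2 in 53 of the 60 genes (88.3%), against 59.2% of all genes, and the median of the 60 log2 differences was 0.601 for HE over Endo replicate 1 and 0.246 for HE over Endo replicate 2. Mural and mesenchymal markers moved with them: their sum over 12 genes was 1150.1 and 1241 FPKM in HE, against 218 in Endo replicate 1 and 479 in Endo replicate 2, and 2 of the 12 were called higher in HE. Epithelial markers summed to 468 and 230.2 FPKM in HE, against 56.1 and 171 in Endo. The part of such cells in the guidance values was not tested.

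Between HE and pre-HSCs, several marker lists also held called genes. Lower in pre-HSCs were 7 of 12 mural and mesenchymal, 7 of 7 epithelial, 5 of 8 neural and 4 of 10 arterial markers. Higher were 3 of 6 venous markers, 2 of 12 endothelial markers and 1 neural marker, Stmn2, with which the neural sum was 108.5 to 113 FPKM in pre-HSCs, against 81.9 and 102 in HE. Mural and mesenchymal markers summed to 490.3, 228 and 297 FPKM in pre-HSCs, against 1150.1 and 1241 in HE. The guidance genes that fell in this step were Sema7a, Unc5b, Ntn1, Sema3g, Slit1, Efnb3, Sema3b, Efna2, Sema3e and Efnb1. Of these 10, Sema3g, Unc5b, Efna2, Efnb1, Efnb3, Ntn1, Sema3b and Sema7a fell again in FL HSCs. How many of all genes called lower in pre-HSCs fell again was not counted, so this has no background to be set against. In FL HSCs and BM HSCs, mural and mesenchymal markers summed to 2.66 to 4.32 FPKM, and Pdgfra, Rgs5, Cspg4, Acta2, Col3a1, Dcn, Lum and Prrx1 were listed at 0 in both libraries of BM HSCs. Their part in the falls was not tested.

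Genes that act with the guidance families, 54 listed by name as co-receptors, other ligands, effectors and proteases, gave 50 that were tested. In FL HSCs over pre-HSCs 1 of them rose and 25 fell, against 11.1% and 13.9% of all genes, and in BM HSCs over Endo 2 rose and 22 fell, against 21.1% and 15.1%. In pre-HSCs over HE 4 rose and 5 fell, against 6.98% and 4.34% of all genes, and in BM HSCs over FL HSCs 5 rose and 0 fell, against 5.99% and 4.07%. In HE over Endo limma called 0 of the 50, against 0.0544% of all genes higher and 0.0748% lower. Of the 6 most abundant, Vasp, an actin regulator, had 185 and 177 FPKM in Endo, 182 and 149 in HE, then 139.7, 153 and 166 in pre-HSCs, followed by 109.6 and 93.7 in FL HSCs, with 117 and 130.1 in BM HSCs. Gipc1, a PDZ adaptor that binds neuropilin-1 and plexins, had 168 and 139 FPKM in Endo, 167 and 124 in HE, then 96.6, 85.9 and 109.5 in pre-HSCs, followed by 75.4 and 55 in FL HSCs, with 36.3 and 35.8 in BM HSCs. Gipc1 fell in BM HSCs over Endo (log2 fold change -2.05, SE 0.20, adjusted p = 1.8e-05). Rras, a small GTPase on which plexins act, had 105 and 89.6 FPKM in Endo, 107 and 75.4 in HE, then 63.4, 65.4 and 69.9 in pre-HSCs, followed by 18.3 and 17.8 in FL HSCs, with 25.5 and 23.8 in BM HSCs. Rras fell in FL HSCs over pre-HSCs (log2 fold change -1.82, SE 0.15, adjusted p = 8.7e-06). Adam10, a protease that cuts ephrins and Robo, had 43.9 and 47.5 FPKM in Endo, 34.4 and 46.8 in HE, then 85.9, 89.98 and 72 in pre-HSCs, followed by 46.8 and 76.4 in FL HSCs, with 78.1 and 74.3 in BM HSCs. Adam10 rose in pre-HSCs over HE (log2 fold change 1.02, SE 0.21, adjusted p = 0.0074). The kinases Fyn and Abl1, which act below several of these receptors, stayed at 57.3 to 88.5 and 25.1 to 50.4 FPKM.

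The co-receptors of the class 3 semaphorins and the B cell receptor for Sema4d were looked at for their place in the pathway and after their values were seen. Neuropilin-1, Nrp1, had 25 and 32.7 FPKM in Endo, 31.6 and 38.6 in HE, then 51.5, 50.6 and 46.6 in pre-HSCs, followed by 1.32 and 0.269 in FL HSCs, with 0.00425 and 0 in BM HSCs. Neuropilin-2, Nrp2, had 27.7 and 46.4 FPKM in Endo, 25.6 and 38.8 in HE, then 87.9, 91.1 and 79.2 in pre-HSCs, followed by 0.757 and 0.194 in FL HSCs, with 0.324 and 0.594 in BM HSCs. Nrp2 rose in pre-HSCs over HE (log2 fold change 1.42, SE 0.26, adjusted p = 0.0046), and both fell in FL HSCs over pre-HSCs, Nrp1 by a log2 fold change of -4.88 (SE 0.24, adjusted p = 3.1e-07) and Nrp2 by -5.91 (SE 0.26, adjusted p = 1.5e-07). Ligands and co-receptors of the class 3 system were thus low together in FL and BM HSCs. Cd72, the receptor for Sema4d on B cells, had 7.12 and 8.35 FPKM in Endo, 7.07 and 6.36 in HE, then 6.99, 5.39 and 11 in pre-HSCs, followed by 6.38 and 2.42 in FL HSCs, with 29.3 and 27.8 in BM HSCs. Cd72 rose in BM HSCs over FL HSCs (log2 fold change 2.56, SE 0.36, adjusted p = 0.0014). Srgap3, a GTPase activator that binds Robo, had 0.492 and 1.06 FPKM in Endo, 0.927 and 2.69 in HE, then 1.56, 1.44 and 1.27 in pre-HSCs, followed by 7.05 and 5.63 in FL HSCs, with 9.92 and 9.88 in BM HSCs. Srgap3 was the 1 partner that rose in FL HSCs over pre-HSCs (log2 fold change 1.60, SE 0.28, adjusted p = 0.0011).

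Below the filter were 9 IDs. Epha5, Epha6, Epha8, Epha10, Unc5d, Ntn5, Plxnb3 and Sema4f stayed under 1 FPKM in every library, and Unc5cl was under 1 FPKM in 10 libraries and reached 4.18 FPKM in BM HSC replicate 2. Unc50 was called in no comparison, at 32.1 to 48.6 FPKM in all 11 libraries.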

How the data were processed

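The deposited table holds FPKM values per Ensembl gene and library for the 11 libraries. The authors aligned paired-end reads of a poly(A) library with TopHat to mm9, kept uniquely mapped reads and relied on Ensembl annotation. Processing notes by the submitters also list Cufflinks, featureCounts, Subread and edgeR, without versions. Which tool made the deposited FPKM is not stated in them. The labels and the methods differ in the read length. FPKM values are no counts, and the low values gave whole fragments for single-exon genes alone, so no count test was run. Symbols came from GENCODE M1 on NCBIM37 for 37038 of 37820 IDs (97.9%).

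Log2(FPKM + 1) of the 14708 genes that reached an FPKM of 1 in 2 or more libraries entered a linear model (limma 3.58.1, R 4.3.3) with 1 coefficient per population over the 11 libraries and trended eBayes. A population with 2 libraries shares the spread of the rest. P values were adjusted over all genes by Benjamini-Hochberg. The pseudocount of 1 shrinks the fold change of low genes. The fit was tested on simulated data. Tables were made in Python 3.11.15 with pandas 2.3.3 and numpy 2.4.6, plots with matplotlib 3.10.9.

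Every gene called in a comparison is named with its values, other tested members with their range, and of the partner genes the 6 with the highest mean FPKM. The members and lists were chosen with earlier results of these data known. Alternatives were pseudocounts of 0.1 and 0.5, no filter, quantile normalization, equal FPKM totals, a stricter adjusted p of 0.01, omission of the F test, a block for the replicate number, fits to the 2 compared populations alone, and each library left out in turn.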

Additional observations from a re-analysis of the deposited data

How the results depend on the processing

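No log2 fold change of a called guidance gene changed sign in any alternative. Calls kept in all alternatives were 6 of 14 for pre-HSCs over HE, 29 of 41 for FL HSCs over pre-HSCs, 1 of 6 for BM HSCs over FL HSCs and 28 of 35 for BM HSCs over Endo. With only the 2 populations compared, where an adjusted p under 0.01 in the comparison took the place of the F test, guidance members called higher in pre-HSCs over HE numbered 1 and called lower 6, those called higher in FL HSCs over pre-HSCs 2, and those called in BM HSCs over FL HSCs 1 higher and 0 lower, with fewer libraries to set the spread. Guidance members called lower in BM HSCs over FL HSCs numbered 5 at a pseudocount of 0.1, 3 at 0.5 and 2 under quantile normalization, and those called higher numbered 3 under quantile normalization and 3 at an adjusted p under 0.01. The cause of these was not tested. With each library left out in turn, the counts higher and lower were 0 to 0 and 0 to 0 for HE over Endo, 2 to 4 and 7 to 11 for pre-HSCs over HE, 3 to 4 and 34 to 39 for FL HSCs over pre-HSCs, 2 to 5 and 1 to 4 for BM HSCs over FL HSCs, and 5 to 6 and 23 to 32 for BM HSCs over Endo. A population left with 1 library was assumed to vary like the others. Equal FPKM totals moved the median of all genes by 0.13 for pre-HSCs over HE, by -0.195 for FL HSCs over pre-HSCs and by 0.129 for BM HSCs over Endo, and quantile normalization moved it by -0.11 for pre-HSCs over HE and by -0.167 for BM HSCs over Endo. Equal replicate numbers are not stated to mark a shared litter or day. The paper's supplement lists the same number of dissected embryos for Endo and HE, without stating whether they were the same embryos. The deviations of same-numbered libraries correlated over 0.1 in 8 of 20 pairs (-0.155 to 0.156), with 0.1155 for Endo and HE. These values depend on how the replicates were numbered and cannot show whether libraries were paired. The main fit did not treat the libraries as pairs. Between populations of 2 libraries each, both replicate numbers give the same correlation, so some of the 20 values repeat. With the replicate number as a block, the counts higher and lower were 0 and 0 for HE over Endo, 3 and 10 for pre-HSCs over HE, 4 and 38 for FL HSCs over pre-HSCs, 4 and 1 for BM HSCs over FL HSCs, and 5 and 29 for BM HSCs over Endo. Low genes are limited by the pseudocount and by values listed at 0, and 2 libraries a population limit every comparison.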
